A study of Rattus norvegicus with 6 samples.

Results

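Scarna15, Mir1839, Mir671 and Chpf2 are 4 of the 32883 genes counted in small RNA libraries of rat INS-1 cells, and they form 2 pairs whose reads fall on both partners at once. The 4 genes were chosen from the deposited values themselves, as genes whose reads nearly all disappeared when reads assigned to more than 1 gene were left out, so the size of that loss is given as a description and was not tested. The libraries came from 6 clonal lines of INS-1(832/13)::mCherry, an insulin-secreting rat insulinoma line with an mCherry reporter, grown at 7.5 mM glucose with 1 library per line. The control lines (5-9, 2 and 16, n = 3) lacked the imprinted Prader-Willi syndrome (PWS) domain on the silent maternal chromosome alone, and the PWS lines (3, 19-1 and 19-4, n = 3) lacked it on both chromosomes. Lines 2 and 16 and the PWS lines were all derived from line 5-9, so every line carries the maternal deletion. Line 3 has a different proximal breakpoint with bacterial DNA at the junction, and lines 19-1 and 19-4 are subclones of a single edited line. A p-value here therefore measures the spread between clonal lines.

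Small Cajal body RNAs (scaRNAs) such as Scarna15 are nuclear guide RNAs that direct chemical modification of spliceosomal RNAs. MicroRNAs (miRNAs) are short repressors of mRNAs cut from hairpins, usually by Drosha and then Dicer, and Scarna15, whose human counterpart is ACA45, is a textbook example of a guide RNA that Dicer also cuts into miRNA-like RNAs. Mir671 has a more common arrangement, in which the miRNA hairpin lies inside a protein-coding gene, here Chpf2, which encodes a chondroitin polymerizing factor of the Golgi.

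The sequences below are shown because they are the annotated mature miRNA products of both pairs and the hairpins that hold them, whether or not the shared reads came from them; the full Chpf2 transcript is not shown. They were taken from RefSeq (build GRCr8). In the mature sequences the capitals mark the seed, bases 2 to 8, with which a miRNA recognizes its targets, and in the hairpins the capitals mark the mature products.
rno-miR-1839-5p: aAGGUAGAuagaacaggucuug
rno-miR-1839-3p: aGACCUACuuaucuaccaacag
Scarna15 hairpin: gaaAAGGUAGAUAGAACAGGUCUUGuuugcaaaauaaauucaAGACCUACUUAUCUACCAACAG
rno-miR-671: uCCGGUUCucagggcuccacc
Mir671 hairpin: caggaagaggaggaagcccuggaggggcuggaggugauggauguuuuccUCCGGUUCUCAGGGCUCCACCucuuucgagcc

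RefSeq holds Scarna15 and Mir1839 as a single gene of the miRNA class, with Mir1839 as a synonym, whereas the deposited tables list them as separate Ensembl genes (ENSRNOG00000044894 and ENSRNOG00000055316). Both mature products of this gene, each 22 bases long, lie in the 64-base hairpin, the 5p product at bases 4 to 25 and the 3p product at bases 43 to 64. The hairpin was predicted to fold with 18 base pairs at -22.0 kcal/mol and had a GC content of 34.4%. Mir671 (ENSRNOG00000040346) lies within Chpf2 (ENSRNOG00000010466) on the same strand in RefSeq, and Chpf2 also overlaps Smarcd3. Its 81-base hairpin holds a 21-base mature product at bases 50 to 70, and was predicted to fold with 30 base pairs at -46.0 kcal/mol at a GC content of 60.5%.

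Each of the 3 seeds occurred under a single name among 693 mature rat miRNA names. The 5p product of Mir1839 nevertheless shares the hexamer AGGUAG, read 5′ to 3′ on the mature strand alone, with 12 other names in bases 1 to 9, which makes 13 names or 1.88% of the 693. Of these, 9 are let-7 or miR-98, a family known for repressing growth genes, and 3 are miR-196, known for targeting Hox genes. The hexamer starts at base 2 in miR-1839-5p and at base 3 in let-7a, shown here with the hexamer in capitals for comparison. It is a match of letters and says nothing on targets.
rno-miR-1839-5p, hexamer: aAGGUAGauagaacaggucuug
rno-let-7a-5p, hexamer: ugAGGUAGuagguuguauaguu
rno-miR-196a-5p, hexamer: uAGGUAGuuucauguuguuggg

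The libraries held 7373691 to 16480475 assignments of reads to genes when an ambiguous read was added to every gene it touched (option "all"), which counts such a read more than once, and 1.89% to 2.13% fewer when such reads were left out (option "none"). Snord116 genes, which lie in the deleted domain, had 23706 reads in control lines and 8 in the PWS lines, matching the labels. All 9 β-cell markers examined had reads in some library. Of 12 marker symbols of other cell types 8 were listed and 3 had reads (the leukocyte miRNA Mir142 at a mean of 60.1 normalized reads, the endothelial Mir126a at 24.7 and the muscle Mir206 with 2 reads), while Gcg, Sst, Prss1, Cpa1 and Mir133b were at 0.

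With ambiguous reads added to every gene, Scarna15 had 21059, 14308 and 18644 normalized reads (reads divided by the DESeq2 size factor of the library) in control lines 5-9, 2 and 16. It had 16274, 14670 and 14105 in PWS lines 3, 19-1 and 19-4. Control line 5-9 was highest and PWS line 19-4 lowest, and the groups overlapped because control line 2 lay among the PWS lines. Mir1839 followed Scarna15 almost read for read, at 21067, 14312 and 18653 normalized reads in lines 5-9, 2 and 16 and 16283, 14678 and 14111 in lines 3, 19-1 and 19-4. The order of the lines was the same for both genes, and across the 6 libraries the coefficient of variation was 17.0%, against counting errors of 0.604% to 0.967% for Mir1839.

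Mir671 had 5791, 5952 and 5228 normalized reads in control lines 5-9, 2 and 16, and 6290, 6776 and 4250 in PWS lines 3, 19-1 and 19-4. Chpf2 had 5797, 5957 and 5235 in the controls and 6300, 6786 and 4253 in the PWS lines. For both genes the highest and the lowest library were the sister subclones 19-1 and 19-4, a 1.59-fold range for Mir671 and 1.60-fold for Chpf2, with the 3 control lines between them. The 2 pairs did not share an order of lines, and Pearson's r of log2 levels between Mir1839 and Mir671 was 0.08 over the 6 libraries.

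**Figure D1:**
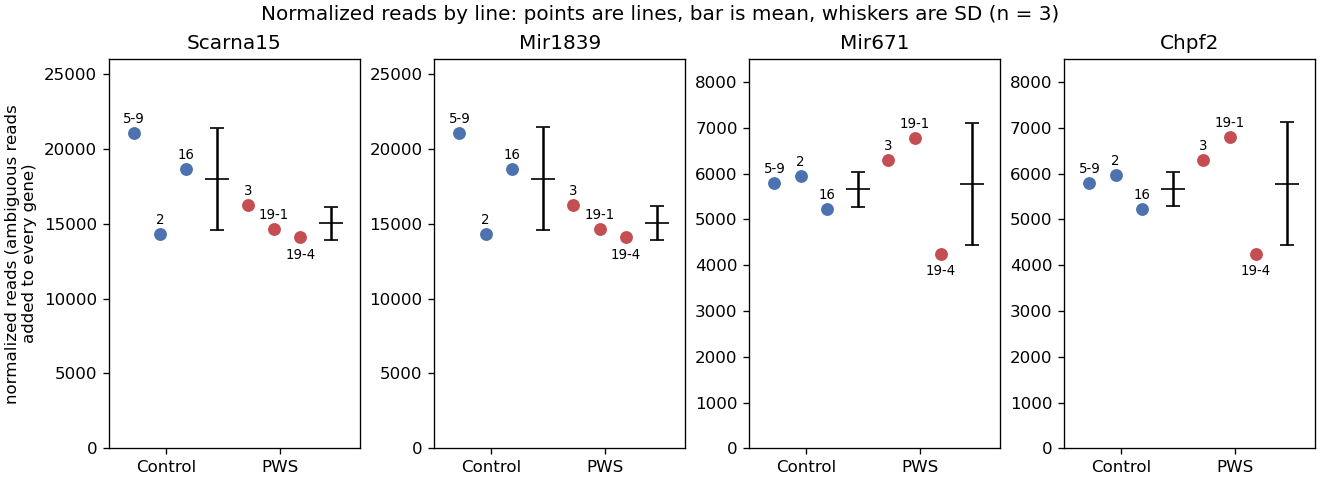
Normalized reads of Scarna15, Mir1839, Mir671 and Chpf2 in each line (points), with ambiguous reads added to every gene; the horizontal bar is the group mean and the whiskers the SD (n = 3). The panels of each pair are nearly identical, control line 2 lies among the PWS lines for Scarna15 and Mir1839, and PWS lines 19-1 and 19-4 are the extremes for Mir671 and Chpf2.

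When ambiguous reads were left out, Scarna15 and Mir671 had 0 reads in all 6 libraries. For Scarna15, 0 of 10699 to 27402 reads per library sets the limit of the own share, taken as 3 reads, at 0.0109% to 0.0280%. For Mir671, 0 of 3224 to 10591 reads sets it at 0.0283% to 0.0931%. These limits and the intervals below cover counting error only. Neither the length nor the position of a read is part of the tables, so whether a Scarna15 read came from a full-length guide RNA or from a mature miR-1839 product, and whether a Chpf2 read came from its mRNA or from miR-671, cannot be told apart in them.

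Mir1839 retained 8, 3 and 11 reads in control lines 5-9, 2 and 16 and 15, 7 and 5 reads in PWS lines 3, 19-1 and 19-4. In normalized reads these were 7.84, 3.92 and 8.46 for the controls and 8.91, 7.34 and 6.59 for the PWS lines. Control line 2 was lowest, and the exact Poisson intervals of all 6 libraries overlapped. The mean of Mir1839 over the 6 libraries was 2301 times higher with ambiguous reads than without them, and 49 of its 108605 reads were its own.

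Chpf2 retained 6, 4 and 10 reads in these control lines and 16, 10 and 2 in these PWS lines. The values were 5.88, 5.23 and 7.69 normalized reads in control lines 5-9, 2 and 16, and 9.50, 10.5 and 2.64 in PWS lines 3, 19-1 and 19-4. Sister subclones 19-1 and 19-4 were again the highest and the lowest, with overlapping intervals of 5.03 to 19.3 and 0.319 to 9.52 normalized reads. The mean was 828 times higher with ambiguous reads than without, and 48 of the 37521 reads assigned to Chpf2 were its own.

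**Figure D2:**
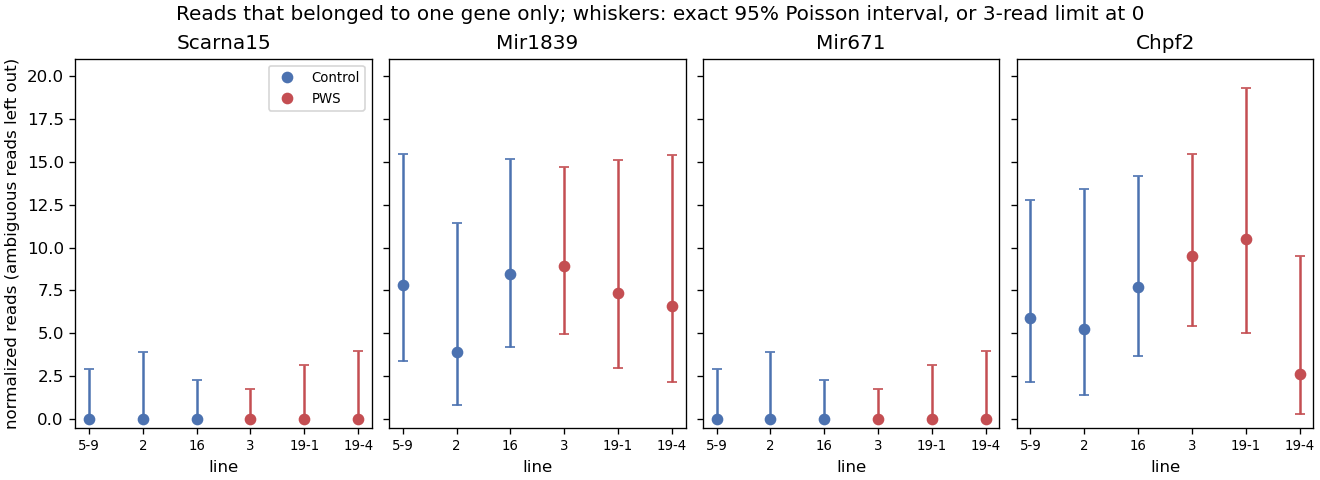
Normalized reads left in each line (x axis) after ambiguous reads were removed, with exact 95% Poisson intervals as whiskers (at 0, the limit of 3 reads). Scarna15 and Mir671 are at 0 in every line, and the values of Mir1839 (3.92 to 8.91) and Chpf2 (2.64 to 10.5) have intervals that overlap across the 6 lines.

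The partners lost exactly the same number of reads in each of the 6 libraries, 108556 in all for Scarna15 and Mir1839 and 37473 for Mir671 and Chpf2. That the lost reads are the same reads is read from this equality alone for Scarna15 and Mir1839, which RefSeq holds as a single gene, and also from the position of Mir671 within Chpf2 in RefSeq for the other pair, since single reads are not listed. Scarna15 and Mir1839 together made up 16.1% of all 1346387 assignments removed by the option "none" (13.9% to 19.2% by library). Mir671 and Chpf2 made up 5.57% (4.22% to 6.60%).

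Whether the shared part of the reads differed between genotypes was compared for Mir1839 and Chpf2, the 2 partners with reads of their own. Of the Mir1839 reads, 99.963%, 99.973% and 99.954% were also assigned elsewhere in control lines 5-9, 2 and 16, and 99.945%, 99.950% and 99.953% in PWS lines 3, 19-1 and 19-4. The own share was thus 0.0368% ± 0.00907 (SD, n = 3) for control and 0.0505% ± 0.00402 (SD, n = 3) for PWS lines. All 3 PWS lines lay above the control lines, and each group's value rests on 22 or 27 reads. The exact two-sided permutation p of 0.1 (0.2 after Benjamini-Hochberg adjustment over 2 comparisons) is the smallest that 3 lines against 3 can give. How many other genes had shares that set the groups apart was not counted, so this separation has no background to be read beside. For Chpf2 the own share was 0.112% ± 0.0311 for control and 0.123% ± 0.0525 for PWS lines (SD, n = 3), with overlapping groups (exact permutation p = 0.8, adjusted p = 0.8). A loss of 100% in every library left nothing to compare for Scarna15 and Mir671.

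The main comparison was whether loss of the paternal as well as the maternal PWS domain changed the level of these RNAs. None of the 4 genes passed the test. By limma on log2(normalized reads + 1), adjusted over all genes tested, 55 of 4292 genes were called at an adjusted p under 0.1 (1.28%, all lower in PWS lines), and the groups of lines did not overlap for 11.2% of genes. The count among the 4 genes was 0 on either measure.

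Scarna15 averaged 18004 ± 3421 normalized reads in control and 15017 ± 1125 in PWS (SD, n = 3). The log2 fold change, PWS minus control, was -0.25 with an SE of 0.22 (limma adjusted p = 0.887). For Mir1839 the means were 18011 ± 3423 and 15024 ± 1127, the log2 fold change -0.25 and the limma adjusted p 0.887. The 95% interval of Mir1839 ran from -0.70 to 0.21 on the log2 scale, or from 0.614 to 1.16 as a ratio of levels.

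Mir671 averaged 5657 ± 380 normalized reads in control and 5772 ± 1340 in PWS (SD, n = 3), and its log2 fold change was 0.0025 with an SE of 0.23 (limma adjusted p = 0.998). Chpf2 averaged 5663 ± 379 and 5780 ± 1344, with a log2 fold change of 0.0027 (limma adjusted p = 0.998). The intervals of both genes ran from 0.711 to 1.41 as a ratio. The control lines were tight, and the spread of the PWS group came from the gap between 19-1 and 19-4. The tests within a pair are not separate evidence, since the partners hold the same reads.

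In the table without ambiguous reads, 55 of 4141 genes (1.33%) were called, and the same 55 genes were called in both tables. Groups did not overlap for 11.3% of genes, and they overlapped for Mir1839 and for Chpf2. Scarna15 and Mir671, at 0 throughout, could not be tested there. The log2 fold change of Mir1839 turned from -0.25 to 0.20 (SE 0.45, limma adjusted p = 0.958), and that of Chpf2 was 0.079 (SE 0.52, limma adjusted p = 0.986). As ratios of levels the 95% intervals ran from 0.596 to 2.22 for Mir1839 and from 0.494 to 2.26 for Chpf2, on 49 and 48 reads. All of these intervals include equality of the groups, so neither direction of Mir1839 is set apart from no difference. Without ambiguous reads the spread between lines also holds the counting error of 3 to 15 reads a library.

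**Figure D3:**
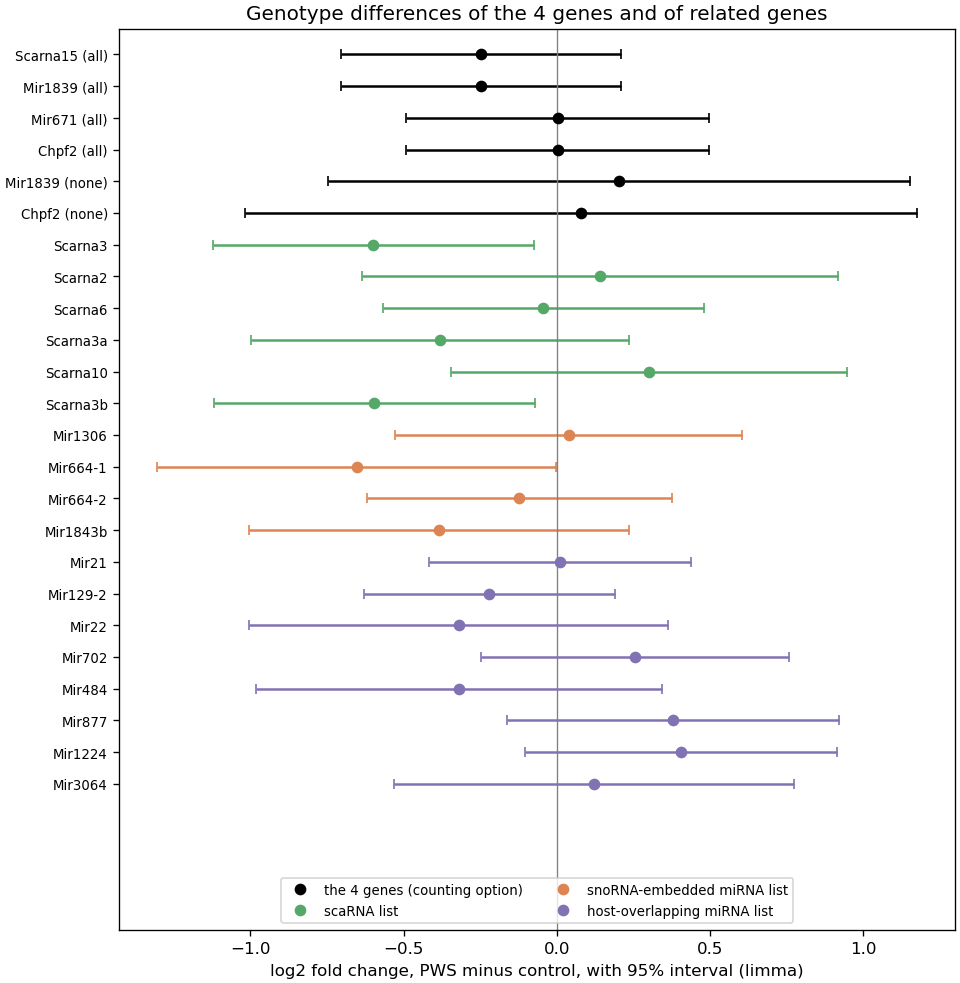
Log2 fold change, PWS minus control, with 95% intervals (limma) for the 4 genes under each counting option and for scaRNA, snoRNA-embedded and host-overlapping miRNA genes. The intervals of the 4 genes all cross 0, Mir1839 lies at -0.25 with ambiguous reads and 0.20 without, and none of the genes plotted was called.

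The counting option also set where the 2 miRNAs stood among the 350 miRNA genes with reads. By mean normalized reads Mir1839 ranked 49 (45 to 52 by library) with ambiguous reads and 235 without. Mir671 ranked 71 (65 to 76 by library) with them and was listed at 0 without. Ranks compare reads as counted, with no correction for length or capture, and the length of the reads is not known from the tables.

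Among the 520 genes that lost any reads (3.04% of the 17119 with reads) there were 36 miRNA genes, 10.3% of the 350. Read losses equal in all 6 libraries linked 55 pairs of genes, each with at least 100 reads lost, and 14 of these held a miRNA gene. Scarna15 and Mir1839 were the second pair by shared reads and Mir671 and Chpf2 the fifth. Mir26b and its host Ctdsp1 shared more, 172958 reads, and the pairs between were AC127784.1 with AC127784.4 at 92185 reads and Snord52 with LOC102549726 at 42979.

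The miRNA in a pair was not always the gene left without reads. Mir671 resembled Mir26b, which had 0 own reads against 9 of Ctdsp1, whereas Mir1839 kept the few own reads of its pair and its guide RNA partner none. Mir702, which overlaps Plod3, lost 71.1% of its 6802 reads, and Mir877 in Abcf1 and Mir1224 in Vwa5b2, both known as short-intron miRNAs, lost 7.76% and 5.43%. In these pairs the own reads of the miRNA were 1964, 6398 and 6874, against 49 for Mir1839 and 0 for Mir671. None of the 110 genes of the 55 pairs was called between genotypes, beside 1.28% of all genes tested. At that share 0 of 110 says nothing particular of these genes, the more so as partners share reads.

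**Figure D4:**
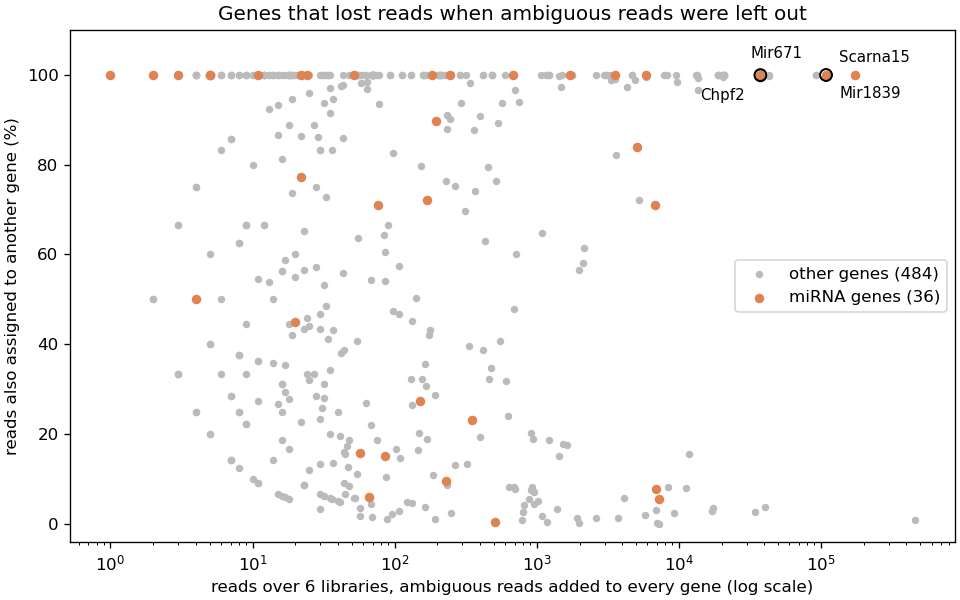
Share of reads also assigned to another gene (y axis, %) against reads over 6 libraries (x axis, log scale) for the 520 genes that lost reads, with the 36 miRNA genes in orange and the 4 genes ringed. The ringed points of each pair coincide, at 37473 and 37521 reads for Mir671 and Chpf2 and 108556 and 108605 for Scarna15 and Mir1839, near 100%.

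Scarna15 was 1 of 7 listed scaRNA genes. With ambiguous reads added to every gene, it held 91.1% to 92.6% of their reads in each library. Scarna3b was left out of that sum because it shares its reads with Scarna3. Every Scarna15 read was also assigned to another gene, and 0 remained without ambiguous reads. This share therefore does not show Scarna15 to be the most abundant scaRNA. None of the 7 was called, beside 1.28% of all genes tested, a share at which 0 of 7 says nothing particular of scaRNAs. Their median log2 fold change was -0.25, the value of Scarna15 itself, and -0.15 over 6 genes when Scarna3b was left out here too (a choice made after seeing the data), beside 0.0048 over all genes. Scarna3 had the lowest p, with 615 ± 48.7 normalized reads in control and 406 ± 39.1 in PWS (SD, n = 3). Its log2 fold change was -0.60, with a limma adjusted p of 0.831. Scarna6, Scarna2 and Scarna10, which lost no reads between the tables, had log2 fold changes of -0.044, 0.14 and 0.30.

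The list of miRNA genes thought to lie in snoRNA-like or similar RNAs held 13 symbols, of which 5 were in the tables. All 5 lost reads (Mir1839, Mir664-1, Mir664-2, Mir1306 and Mir1843b), beside 10.3% of all miRNA genes with reads. The list gathers miRNA genes said to lie inside other genes, and Mir1839 was chosen for its loss. These losses are therefore a description and no test of the list. Mir1839 kept 49 reads and the other 4 were at 0 without ambiguous reads. Of these, Mir1306 overlaps Dgcr8, which encodes the partner of Drosha, and not a guide RNA. None of the 5 was called (1.28% over all genes tested), with a median log2 fold change of -0.25, which is the value of Mir1839. Of 11 listed miRNA genes with a known overlapping host, Mir671 among them, 6 lost reads, beside the same 10.3%. That list too was made for overlaps and holds Mir671, chosen for its loss, so its count is likewise a description. Of these 11, 10 could be tested and 0 were called, beside the same 1.28%, with a median log2 fold change of 0.025.

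Chpf2 was the one gene of chondroitin sulfate synthesis that reached the minimum of 5 normalized reads for testing, out of 20 listed. Of the other 19, 15 had reads, with 1 to 26 reads each over the 6 libraries and means of 0.220 to 3.81 normalized reads. Its closest relative Chpf had 24 reads, none of them shared, and the chain-starting xylosyltransferase gene Xylt2 had 26. Chpf2 had 48 own reads, and 37521 with ambiguous reads added. Gene length was not taken into account, so these reads rank no gene against another. The names of the deposited tables carry an abbreviation that may stand for exon features, but no source used here spells out whether reads in introns were counted for Chpf2.

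Over the 6 libraries, 603 genes averaged at least 100 normalized reads, and, leaving out the 4 genes themselves since partners hold nearly the same reads, the profiles of log2 levels most like that of Mir1839 were those of Mir503 (Pearson's r = 0.98), AABR07028813.1 (0.96) and AY172581.20 (0.96). Mir503 ran from 131 normalized reads in control line 2 to 221 in control line 5-9. With the same genes left out, those most like Mir671 were Mir497 (0.95), Mir185 (0.94) and Mir3099 (0.93), and the same 3 genes came out for Chpf2. Mir497 was likewise lowest in PWS line 19-4, at 344 normalized reads. These correlations are descriptions over 6 points that share libraries and size factors, chosen as the highest of many.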

How the data were processed

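The authors prepared small RNA libraries with a kit that adds unique molecular identifiers, and widened the size selection to keep snoRNAs. Per the submitters' processing notes the tools were UMI-tools 1.0.0, cutadapt 1.18, Bowtie2 2.3.4.2, HTSeq 0.11.2, featureCounts and DESeq2 with build Rnor_6.0; whether whole genes or exons were counted, which decides if reads in introns of Chpf2 enter its values, is not spelled out in the sources used here, although an abbreviation in the names of the deposited tables may stand for exons. The authors deposited 2 tables of signal, gene reads divided by a DESeq2 size factor per library, that differ in the option for reads assigned to several genes ("all" or "none"). Whole reads were recovered for 100% of values in both tables (tolerance 0.001). The deposited columns of log2 fold change, its standard error (recorded here under the general unit score), p-value and adjusted p-value hold the authors' comparison and were not used.

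The share of reads also assigned elsewhere is the reads under "all" minus those under "none", over those under "all", with exact Clopper-Pearson or Poisson 95% intervals (SciPy 1.17.1 in Python 3.11.15). Genotypes were compared with limma 3.58.1 (limma-trend, R 4.3.3) on values taken as log2(normalized reads + 1), for genes that averaged 5 normalized reads or more, with Benjamini-Hochberg adjustment over all of them and an adjusted p under 0.1 as the call. This scale understates changes of genes with few reads. Shares were compared by an exact permutation test over lines. The script was checked on simulated reads. RefSeq tables of build GRCr8 gave names, overlaps and sequences (3 genes matched as symbols and 1 as a synonym), and no coordinates are given because the builds differ. Hairpins were folded with ViennaRNA 2.7.2.

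The 4 genes and the lists were chosen with earlier results of these data known. Besides the 4 genes, the rule named overlapping genes, the 3 most similar profiles of each, up to 5 other genes with the most lost reads, and members of the lists. Mir702, Mir877 and Mir1224 come from the list of host-overlapping miRNAs, and their partners Plod3, Abcf1 and Vwa5b2, the partner Dgcr8, and Mir26b as a comparison were named after their values were seen. Alternatives were pseudocounts of 0.5 and 5, filters at 1 and 20 and none, upper-quartile and TMM scaling, edgeR 4.0.16, DESeq2 1.42.0, limma-voom, the "none" table, a threshold of 0.05, the replicate block, lines 19-1 and 19-4 averaged, and each line left out.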

Additional observations from a re-analysis of the deposited data

How the results depend on the processing

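None of the 4 genes was called under any alternative run, 19 for Scarna15 and Mir671 and 20 for Mir1839 and Chpf2. Adjusted p-values over these ranged from 0.818 to 1.00 for Scarna15 and Mir1839 and from 0.952 to 1.00 for Mir671 and Chpf2 (limma, edgeR and DESeq2 included). The log2 fold change of Mir1839 became 0.20 in the table without ambiguous reads, where Scarna15 and Mir671, at 0, gave no value. That of Mir671 became -0.027 with upper-quartile and -0.00071 with TMM scaling, and that of Chpf2 -0.027 and -0.00056. Leaving out 1 line at a time, the log2 fold change ran from -0.40 to -0.12 for Scarna15 and Mir1839 and from -0.13 to 0.21 for Mir671 and Chpf2, for which it was below 0 when line 16, line 3 or line 19-1 was dropped. The PWS minus control difference in the shared percentage ran from -0.0405 to 0.00595 for Chpf2 and from -0.0181 to -0.00906 for Mir1839, and was 0 for Mir671. The number of genes called was 41 to 66 over all alternatives, 44 to 58 of these with a line left out, beside 55. Adding a replicate block gave 56 called genes (55 in common with the fit without it) and changed no call of the 4 genes. Control and PWS lines with the same replicate number correlated at 0.414, 0.218 and -0.057 over 1087 genes. Lines with different numbers were not compared, so whether the numbers pair the lines was not settled. The few own reads of Mir1839 and Chpf2, at 2 to 16 a library, limit what can be said of them, and 3 lines a group limit the genotype comparison.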

Other observations

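In 3 further miRNA pairs both partners were left without a single read when ambiguous reads were removed. They were Mir664-1 with AC136161.1 (1711 shared reads over the 6 libraries), Mir199a2 with AABR07021591.1 (246) and Mir147 with MGC105649 (182). Mir664-2 shared 5829 reads with the guide RNA Snora36b, which kept 22, and Mir1843b shared 683 with Scarna3a, which kept 24, so in both of these pairs it was the guide RNA gene that held the own reads, unlike in the pair of Scarna15 and Mir1839. These pairs were singled out after their values were seen.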
